A study of Homo sapiens with 6 samples.

Results

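The HOX genes are the 39 protein-coding homeobox genes of the HOXA, HOXB, HOXC and HOXD clusters. They were taken as every counted row whose Ensembl gene ID belongs to one of these symbols, without antisense or other noncoding genes, and all 39 were found among 58051 rows. The study measured RNA by sequencing in A375, an established human melanoma cell line that carries a mutant BRAF gene. The treated group was 3 libraries of cells given 10 ng/mL of human recombinant TGFB1, the ligand of the TGF-beta pathway, for 2 h, and the comparison group, Vehicle, was 3 libraries of cells given 4 mM HCl with 1 mg/mL BSA for the same time. All cells had first been kept without serum for 2 h. The series' text describes a technical triplicate in a single cell line, so every p-value below measures the spread between these libraries, which may be technical, and not that between independent cultures.

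HOX proteins are transcription factors that bind DNA through a homeodomain, mostly together with PBX and MEIS cofactors. In each cluster the genes stand in the order in which they are used along the body, from the 3′ end (paralog group 1, hindbrain) to the 5′ end (paralog group 13, tail, distal limb and urogenital tract), and genes with the same number in different clusters are paralogs. Cells taken from adult skin and kept in culture are known to retain part of this positional code, which Polycomb proteins hold silent and Trithorax proteins hold active at the genes concerned.

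The libraries held 24713894 to 34895075 counts, of which the HOX genes took 0.0180% to 0.0204%, 4453 to 6776 counts. The floor of detection, 3 counts, corresponds to 0.0860 to 0.121 CPM (counts per 1000000 of the library total) and covers counting error only. The treatment registered in every TGFB1 library: SMAD7, a direct TGF-beta target and inhibitor of the pathway, averaged 61.2 ± 4.02 CPM in TGFB1 and 9.26 ± 1.87 CPM in Vehicle (SD, n = 3 each). Vehicle replicate 1 was the shallowest library, and its counts differed from those of Vehicle replicate 3 (25.7 times Poisson sampling noise over genes) about as much as from those of the TGFB1 libraries (24.4 to 31.8 times). Of 12 melanocytic markers, MCAM, CSPG4, MITF and S100B were abundant and SOX10 was at 0 counts in all 6 libraries, and the list summed to 577 to 599 CPM with TGFB1 and 589.7 to 616 CPM in Vehicle. MITF alone of these fell (log2 fold change -0.23, edgeR adjusted p = 0.0355), a call lost under 6 of 14 alternatives. In the lists of other cell types, KRT14, KDR, LYZ and LUM gave most of the sum, and EPCAM, CDH5, PTPRC and COL1A1 averaged under 0.5 CPM. The summed level was 14.9 to 18.8 CPM with TGFB1 and 13.997 to 17.0 CPM in Vehicle for 5 epithelial markers, 15.1 to 16.1 CPM with TGFB1 and 13.1 to 18.2 CPM in Vehicle for 4 endothelial ones, and 5.73 to 6.53 CPM with TGFB1 and 6.31 to 7.48 CPM in Vehicle for 5 leukocyte ones. Of these sums only that of the 6 fibroblast markers did not overlap, at 12.2 to 12.6 CPM with TGFB1 and 14.3 to 16.9 CPM in Vehicle, and 0 of their 3 tested members passed the test; the part of these markers in the HOX values was not tested.

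In Vehicle, A375 cells expressed a broad and uneven HOX code that included genes from both ends of the clusters. Of the 39 genes, 25 averaged at least 1 CPM, 9 lay between 0.1 and 1 CPM and 5 lay under 0.1 CPM. By cluster, 5 of 11 HOXA genes, 8 of 10 HOXB genes, 8 of 9 HOXC genes and 4 of 9 HOXD genes reached 1 CPM. In GENCODE 29 on GRCh38 the clusters lie at chr7:27092993-27200106 (HOXA), chr17:48528526-48729178 (HOXB), chr12:53938765-54056030 (HOXC) and chr2:176092891-176190907 (HOXD). HOXB gave the largest share, 40.8% to 41.3% of the length-corrected HOX signal over the Vehicle libraries, HOXC 23.3% to 24.7%, HOXA 21.9% to 22.9% and HOXD 12.5% to 12.6%. In bulk RNA, fewer cells with a transcript and less of it per cell cannot be told apart.

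Levels were compared between genes as CPM per kilobase of annotated exon, here called CPM per kb. HOXB7 led with 16.3 ± 1.07 CPM per kb in Vehicle (SD, n = 3), followed by HOXA5 with 12.4 ± 0.441 and HOXB2 with 7.07 ± 0.458. HOXC9 (6.02) and HOXC10 (5.92) came next and overlapped each other. HOXD13, HOXD9, HOXC13 and HOXB4 lay between 2.84 and 3.59 CPM per kb, and each overlapped the next. The top 2 genes held 33.7% to 34.96% of the length-corrected signal and the top 10 held 74.8% to 76.8%. HOXB7 lay above 85.9% of protein-coding genes in Vehicle and HOXC12, the lowest of the 25, above 44.0%. Over the whole order, the ranges of 30 of the 38 neighbouring pairs overlapped. With exon bases shared with another gene on the same strand left out of the length, 9 of the leading 10 genes were the same, HOXA10 taking the place of HOXD8.

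**Figure D1:**
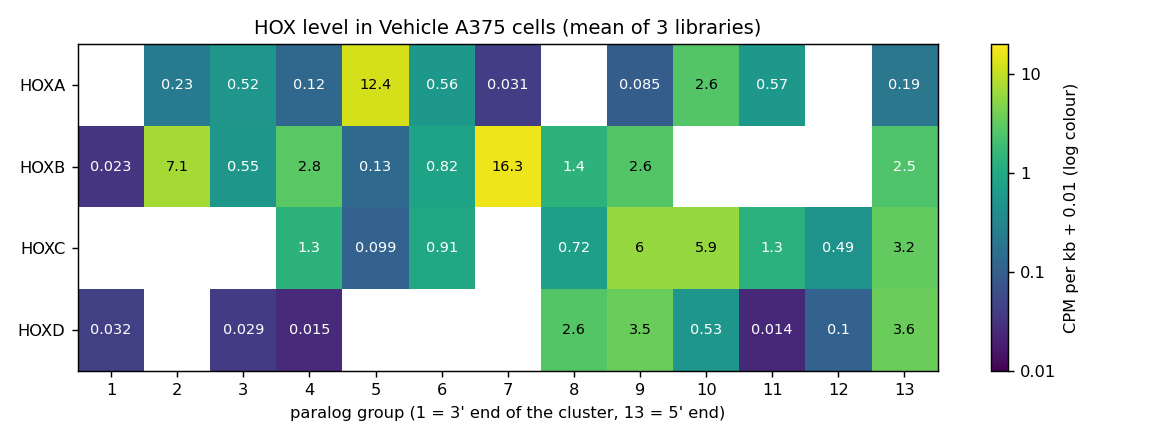
Mean level of each HOX gene in the 3 Vehicle libraries, as CPM per kb of exon on a logarithmic colour scale, with clusters as rows and paralog groups as columns; white cells are positions with no gene or not shown. The highest cells are HOXB7, HOXA5 and HOXB2, and 3 of the 4 clusters have a group 13 gene above 2 CPM per kb.

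By class, the 8 anterior genes (groups 1 to 3) held 11.02% to 12.8% of the length-corrected signal in Vehicle, the 15 central genes (groups 4 to 8) 47.7% to 48.8% and the 16 posterior genes (groups 9 to 13) 39.1% to 40.2%. Of these, 4, 9 and 12 genes reached 1 CPM. Levels did not fall or rise steadily along any of the 4 clusters. Some neighbours differed by more than their spread. HOXA5 was 85.4 to 128.5 times HOXA4 and 16.3 to 32.9 times HOXA6 within the Vehicle libraries. HOXA4 had only 5, 5 and 9 counts in these libraries, so its ratio rests on few reads. HOXB7 was 16.9 to 24.1 times HOXB6 and 11.2 to 14.02 times HOXB8, and HOXB2 was 10.6 to 20.7 times HOXB3. Others did not: HOXC9 was 0.873 to 1.11 times HOXC10, HOXB9 0.926 to 1.21 times HOXB13 and HOXC6 0.868 to 3.36 times HOXC8. When the length counted only bases free of any other gene on either strand, a choice made after seeing the data, the HOXA5 to HOXA4 ratio was 45.0 to 67.8 and the HOXA5 to HOXA6 ratio 9.77 to 19.7.

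Promoters of adjacent genes at very different levels are shown for the region from HOXA10 to HOXA6 and for HOXD8 and HOXD4. In both, an expressed gene borders one with few counts. The RefSeq windows run from 250 bases before to 50 after the annotated start on GRCh38.p14, and 20 of the 39 genes matched one; HOXA5 was not among them. Each is written 5′ to 3′ on the gene's strand, and capitals mark CAGAC or its reverse complement GTCTG, the core of the element bound by SMAD proteins.
HOXA10 (chr7:27179812-27180111, minus strand): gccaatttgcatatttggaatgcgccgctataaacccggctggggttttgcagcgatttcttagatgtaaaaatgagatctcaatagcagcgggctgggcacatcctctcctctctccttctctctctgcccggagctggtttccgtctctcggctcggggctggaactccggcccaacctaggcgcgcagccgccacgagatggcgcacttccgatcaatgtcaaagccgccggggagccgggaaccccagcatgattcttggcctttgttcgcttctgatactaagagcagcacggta
HOXA9 (chr7:27165488-27165787, minus strand): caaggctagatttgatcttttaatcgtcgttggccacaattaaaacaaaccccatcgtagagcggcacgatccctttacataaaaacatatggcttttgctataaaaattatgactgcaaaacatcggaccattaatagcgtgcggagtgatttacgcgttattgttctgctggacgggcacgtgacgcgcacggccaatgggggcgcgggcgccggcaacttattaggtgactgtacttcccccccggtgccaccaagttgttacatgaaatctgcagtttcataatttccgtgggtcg
HOXA7 (chr7:27156626-27156925, minus strand): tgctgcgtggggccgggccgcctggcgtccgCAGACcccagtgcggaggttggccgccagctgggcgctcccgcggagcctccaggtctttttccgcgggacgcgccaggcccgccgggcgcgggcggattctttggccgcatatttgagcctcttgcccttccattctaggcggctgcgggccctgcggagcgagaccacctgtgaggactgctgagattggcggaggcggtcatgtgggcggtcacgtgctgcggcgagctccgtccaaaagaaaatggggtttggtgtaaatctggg
HOXA6 (chr7:27147725-27148024, minus strand): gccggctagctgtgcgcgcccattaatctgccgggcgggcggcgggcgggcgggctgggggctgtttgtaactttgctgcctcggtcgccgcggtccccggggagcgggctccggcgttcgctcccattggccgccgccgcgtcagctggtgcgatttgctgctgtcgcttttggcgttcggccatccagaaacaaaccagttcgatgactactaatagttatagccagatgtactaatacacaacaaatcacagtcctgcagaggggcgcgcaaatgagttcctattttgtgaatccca
HOXD8 (chr2:176129455-176129754, plus strand): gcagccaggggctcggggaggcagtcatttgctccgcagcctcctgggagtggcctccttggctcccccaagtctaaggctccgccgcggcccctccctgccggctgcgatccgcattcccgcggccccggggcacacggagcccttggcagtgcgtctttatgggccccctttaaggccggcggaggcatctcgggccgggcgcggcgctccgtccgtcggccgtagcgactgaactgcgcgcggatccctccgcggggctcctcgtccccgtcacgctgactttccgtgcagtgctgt
HOXD4 (chr2:176151300-176151599, plus strand): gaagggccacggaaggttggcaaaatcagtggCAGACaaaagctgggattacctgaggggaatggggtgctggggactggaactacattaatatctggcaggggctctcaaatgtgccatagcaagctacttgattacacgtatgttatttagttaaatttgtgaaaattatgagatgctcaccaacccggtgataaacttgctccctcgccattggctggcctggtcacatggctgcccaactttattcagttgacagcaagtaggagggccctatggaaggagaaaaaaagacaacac

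Behind these windows the Vehicle levels were 2.57 CPM per kb for HOXA10, 0.0847 for HOXA9, 0.0313 for HOXA7 and 0.558 for HOXA6. They were 2.63 CPM per kb for HOXD8 and 0.0148 for HOXD4. Only 19.5% of HOXD4, 37.5% of HOXA7 and 59.9% of HOXA6 exon bases are free of every other annotated gene. Low values of these genes are therefore uncertain. The HOXA7 window held 31 CG dinucleotides and the HOXA9 window 22, against 21 in the HOXA10 window printed and 25 in the other HOXA10 window. The HOXD8 window had 34 and that of HOXD4 had 4. The windows of the 13 matched genes under 1 CPM had a median of 25 CG dinucleotides, those of the 7 matched genes at or above 1 CPM a median of 18 over 14 windows, 7 of them of HOXA3, and all 35116 windows 14. HOXC4, at or above 1 CPM, and HOXC5, under it, share 1 window, so the 27 windows are 26 distinct ones; without that window the medians were 26 under 1 CPM and 21 at or above it. The SMAD core, searched on both strands, was found in 11 of 27 HOX windows (40.7%) and in 45.3% of all windows. The retinoic acid receptor core AGGTCA, or TGACCT on the other strand, was found in 0 of 27 HOX windows and in 13.8% of all. These matches describe letters in the windows and not binding.

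After 2 h with TGFB1 a single HOX gene, HOXA5, passed the test, and it was higher. Libraries were compared by quasi-likelihood in edgeR over 16690 genes, with p-values adjusted by Benjamini and Hochberg's method, a threshold of 0.05 and positive log2 fold changes for genes higher with TGFB1. Adjusted p-values below are edgeR's unless another tool is named. Of 29 HOX genes with enough counts to be tested, 1 rose and 0 fell, which is 3.45% against 3.31% of all tested genes (2.43% higher and 0.887% lower), so the share called was near the background. DESeq2 and limma-voom also called 1 of the 29, against 3.78% of the 15072 genes given an adjusted p by DESeq2 and 3.1% of 16690 in limma-voom. HOXB5, among the 29, was given no adjusted p by DESeq2. At an unadjusted p under 0.05 the count was also 1 with each of the 3 tools, against 12.3% of all genes in edgeR, 11.2% in DESeq2 and 12.4% in limma-voom. The groups' CPM did not overlap for 4 of the 29, 3 higher and 1 lower, or 13.8% against 16.4% of all tested genes (9.04% higher and 7.32% lower). The median log2 fold change of the 29 was 0.04, against -0.01 over all tested genes.

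**Figure D2:**
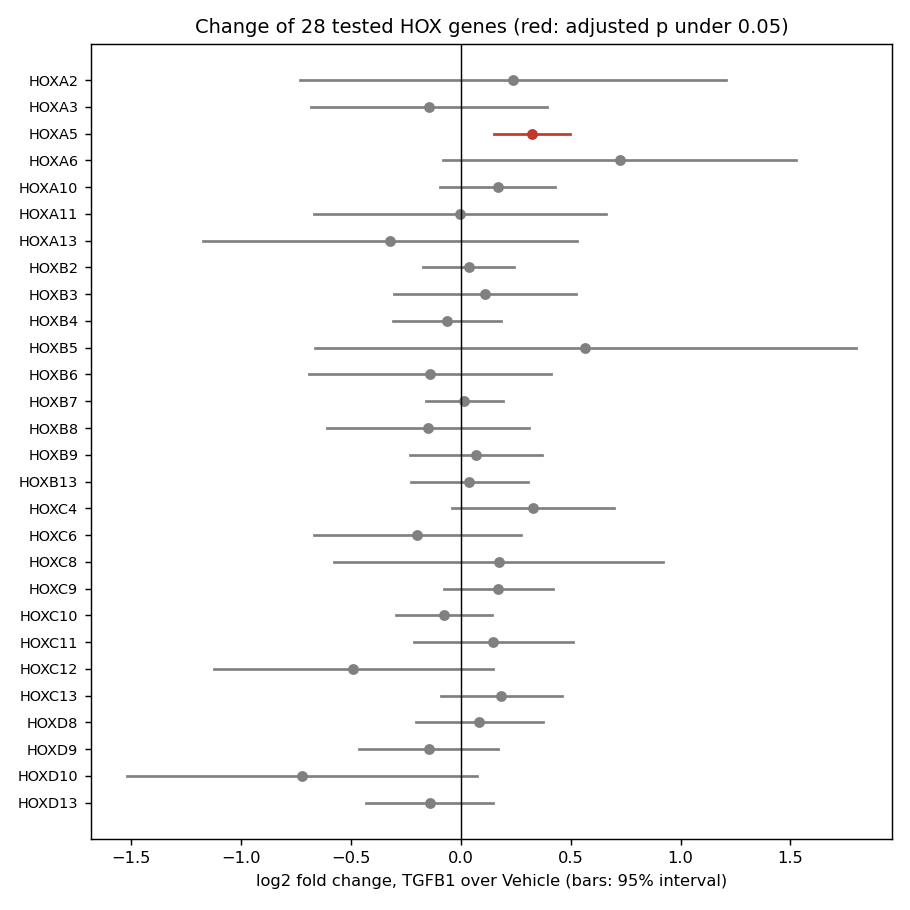
Log2 fold change of TGFB1 over Vehicle for 28 of the tested HOX genes, with 95% intervals as bars, in cluster order from the top. HOXA5, in red, is the one gene with an adjusted p under 0.05, and the intervals of low genes such as HOXB5, HOXA2 and HOXD10 are wide.

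The gene that rose was HOXA5 (chromosome 7 at 27141052 to 27143668, GRCh38), a central HOX gene that is needed for lung and axial skeleton in mouse. Its values were 27.5, 26.0 and 26.4 CPM in the TGFB1 libraries, against 21.2, 20.3 and 21.8 CPM in Vehicle. All 3 TGFB1 libraries lay above all 3 Vehicle libraries. It averaged 26.6 ± 0.819 CPM in TGFB1 and 21.1 ± 0.753 CPM in Vehicle (SD, n = 3 each). The log2 fold change was 0.33 ± 0.09 (SE; 95% interval 0.15 to 0.50, a 1.11- to 1.41-fold rise; adjusted p = 0.0218). The adjusted p was 0.00723 in DESeq2 and 0.0247 in limma-voom. The call was lost without TGFB1 replicate 1 (adjusted p = 0.141), TGFB1 replicate 2 (0.0532), TGFB1 replicate 3 (0.0832) or Vehicle replicate 2 (0.114), while the log2 fold change stayed between 0.31 and 0.34 over 14 alternatives. No annotated exon of another gene overlaps those of HOXA5. The antisense gene HOXA-AS3, which spans it, had 0.363 ± 0.102 CPM in TGFB1 and 0.362 ± 0.0859 CPM in Vehicle (SD, n = 3 each).

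The other tested HOXA genes did not pass. HOXA6, just 5′ of HOXA5, had 1.08, 1.06 and 1.48 CPM in the TGFB1 libraries, against 0.486, 0.940 and 0.727 CPM in Vehicle. The groups did not overlap, but the counts were few and the log2 fold change of 0.72 ± 0.40 (SE) did not pass (adjusted p = 0.492). HOXA3, needed for thymus and parathyroid in mouse, had 2.37, 1.63 and 2.13 CPM in the TGFB1 libraries, against 1.58, 2.69 and 2.41 CPM in Vehicle, with Vehicle replicate 1 lowest of the 6. HOXA10 and HOXA11 act in the uterus and limb. HOXA10 had 12.5, 10.4 and 9.40 CPM in the TGFB1 libraries, against 9.06, 8.91 and 10.6 CPM in Vehicle. HOXA11 had 1.23, 1.55 and 1.17 CPM in the TGFB1 libraries, against 0.931, 1.26 and 1.72 CPM in Vehicle. Both overlapped between the groups. The summed HOXA level was 52.0, 46.5 and 46.3 CPM in the TGFB1 libraries, against 39.4, 39.1 and 44.1 CPM in Vehicle, and did not overlap. HOXA5 is part of this sum. With HOXA5 taken out of the sum, the groups overlapped. HOXA2 and HOXA13 averaged under 1 CPM in Vehicle, had log2 fold changes of 0.24 and -0.32 and did not pass.

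HOXB, the most abundant cluster, overlapped between the groups in every tested gene. Its sum was 80.2, 77.0 and 76.5 CPM in the TGFB1 libraries, against 74.9, 74.9 and 80.3 CPM in Vehicle. HOXB7, known in melanoma cells as an activator of the FGF2 gene, had 25.1, 26.7 and 24.2 CPM in the TGFB1 libraries, against 23.7, 24.3 and 26.8 CPM in Vehicle. Its 95% interval for the log2 fold change, -0.16 to 0.19, was the narrowest of the uncalled HOX genes. HOXB2, a hindbrain gene, had 18.6, 16.3 and 16.2 CPM in the TGFB1 libraries, against 17.0, 17.2 and 15.3 CPM in Vehicle. HOXB3 had 5.13, 4.21 and 3.88 CPM in the TGFB1 libraries, against 4.98, 2.66 and 4.60 CPM in Vehicle, with Vehicle replicate 2 lowest.

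HOXB4, known for expanding blood stem cells, had 9.13, 10.8 and 10.8 CPM in the TGFB1 libraries, against 10.4, 10.3 and 11.3 CPM in Vehicle. HOXB6 had 1.45, 1.92 and 2.43 CPM in the TGFB1 libraries, against 2.39, 1.72 and 2.27 CPM in Vehicle. HOXB8, a factor of myeloid progenitors, had 2.55, 2.29 and 2.74 CPM in the TGFB1 libraries, against 2.27, 2.92 and 3.14 CPM in Vehicle. The log2 fold changes of these 3 were -0.06, -0.14 and -0.15, and the groups overlapped for each. HOXB9, a thoracic gene in mouse, had 8.03, 6.71 and 6.72 CPM in the TGFB1 libraries, against 5.75, 6.74 and 7.77 CPM in Vehicle. HOXB13, a prostate and tail gene that lies far 5′ of the others in the cluster, had 9.78, 7.71 and 9.18 CPM in the TGFB1 libraries, against 8.34, 8.81 and 8.61 CPM in Vehicle. Its log2 fold change was 0.04 ± 0.13 (SE, adjusted p = 0.956). HOXB5 was tested at 0.390 ± 0.0468 CPM in TGFB1 and 0.256 ± 0.111 CPM in Vehicle (SD, n = 3 each) and had the widest interval, -0.66 to 1.80.

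**Figure D3:**
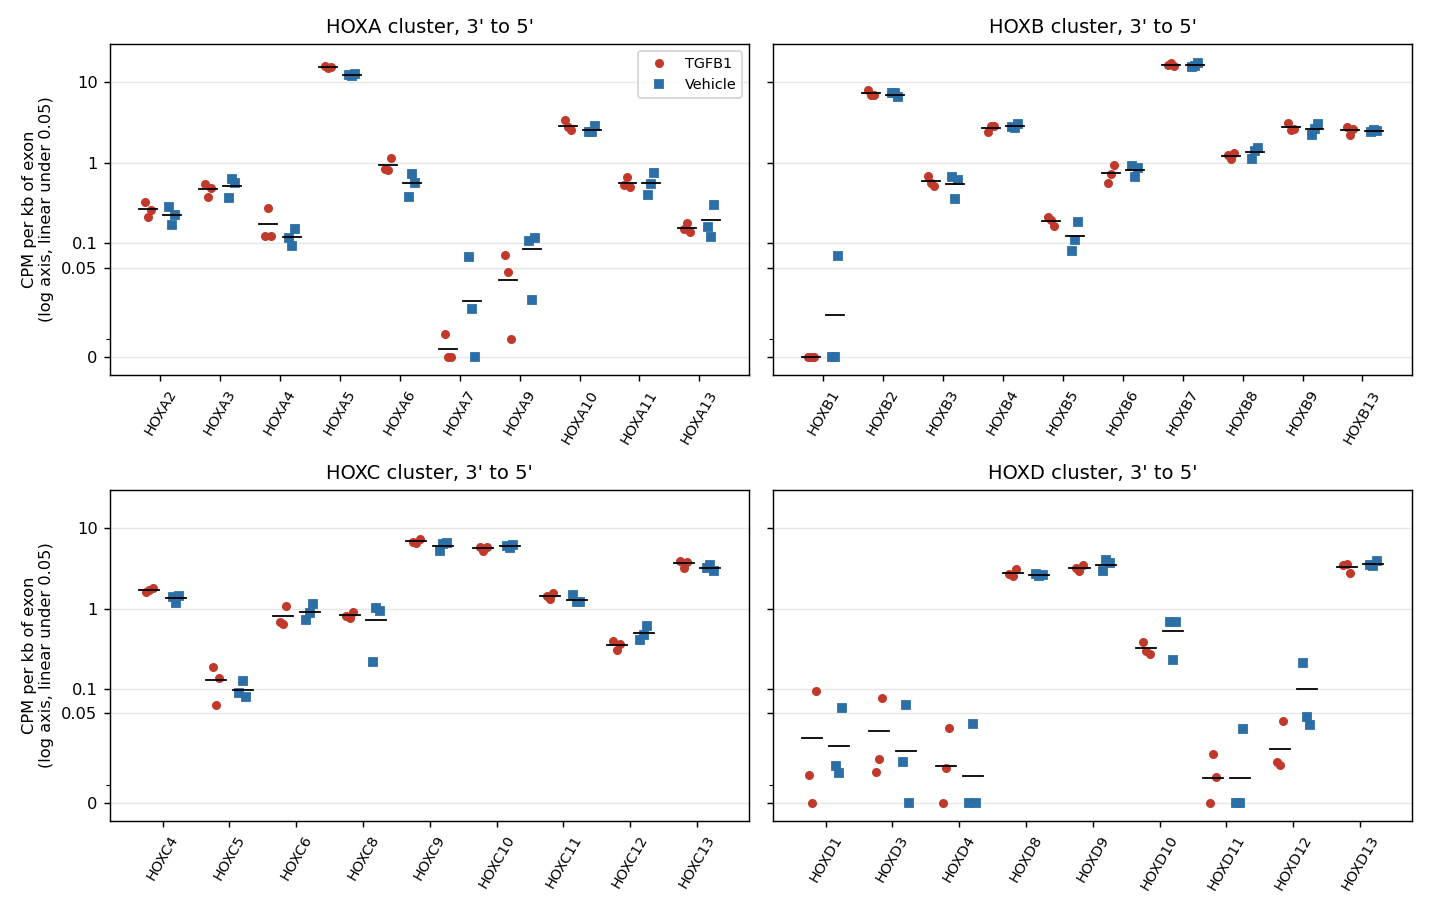
CPM per kb of 38 HOX genes in each library (TGFB1 as red circles on the left, Vehicle as blue squares on the right of each position, group means as black lines), on a logarithmic axis that is linear under 0.05, with each cluster from its 3′ to its 5′ end. Apart from HOXA5, HOXA6, HOXC4 and HOXC12 the groups overlap for all tested genes drawn, and Vehicle replicate 1 is low for HOXC8.

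In HOXC, the central genes HOXC4, HOXC6 and HOXC8 and the posterior genes from HOXC9 to HOXC13 were all expressed. HOXC4, which acts in B cells on the gene of activation-induced deaminase, had 4.37, 4.59 and 4.90 CPM in the TGFB1 libraries, against 3.84, 3.21 and 3.93 CPM in Vehicle. The groups did not overlap, and the log2 fold change of 0.33 ± 0.18 (SE) did not pass (adjusted p = 0.496). HOXC6 had 2.43, 2.29 and 3.85 CPM in the TGFB1 libraries, against 2.55, 3.11 and 4.04 CPM in Vehicle, with overlap. HOXC8 had 1.54, 1.46 and 1.69 CPM in the TGFB1 libraries, against 0.405, 1.91 and 1.75 CPM in Vehicle. Vehicle replicate 1 was thus 4.72 times below the highest Vehicle library for HOXC8, whereas the TGFB1 libraries lay within 1.16 times of each other, and the log2 fold change of 0.17 turned to -0.23 without that replicate.

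HOXC9 and HOXC10, which specify thoracic and lumbar motor neurons in mouse, were the leading HOXC genes. HOXC9 had 11.3, 10.9 and 12.3 CPM in the TGFB1 libraries, against 8.70, 10.7 and 10.97 CPM in Vehicle. HOXC10 had 13.8, 12.2 and 13.6 CPM in the TGFB1 libraries, against 13.8, 13.3 and 14.3 CPM in Vehicle. Their log2 fold changes were 0.17 ± 0.12 and -0.08 ± 0.11 (SE). HOXC11 had 4.70, 4.24 and 5.05 CPM in the TGFB1 libraries, against 4.77, 3.92 and 3.90 CPM in Vehicle, and the groups overlapped. HOXC12 had 1.32, 1.03 and 1.20 CPM in the TGFB1 libraries, against 1.38, 1.56 and 2.01 CPM in Vehicle; the TGFB1 libraries lay below the Vehicle libraries without overlap, but the log2 fold change of -0.49 ± 0.31 (SE) did not pass (adjusted p = 0.587). HOXC13, needed for hair and nails, had 9.59, 7.85 and 9.12 CPM in the TGFB1 libraries, against 7.73, 8.39 and 7.10 CPM in Vehicle, again with overlap. Summed HOXC levels were 49.4, 44.6 and 51.9 CPM with TGFB1, against 43.4, 46.3 and 48.1 CPM in Vehicle, and overlapped.

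HOXD was expressed at its middle and its 5′ end, with low genes between. HOXD8 had 7.10, 6.71 and 8.26 CPM in the TGFB1 libraries, against 7.08, 6.67 and 6.95 CPM in Vehicle. HOXD9 had 5.96, 5.53 and 6.59 CPM in the TGFB1 libraries, against 5.42, 7.55 and 6.84 CPM in Vehicle. Both overlapped, with log2 fold changes of 0.08 and -0.15. HOXD10, a lumbar motor neuron gene in mouse, had 1.05, 0.802 and 0.739 CPM in the TGFB1 libraries, against 1.82, 0.616 and 1.83 CPM in Vehicle. Its log2 fold change, the lowest of the 29, was -0.72 ± 0.39 (SE, adjusted p = 0.483); Vehicle replicate 2 lay below every TGFB1 library, and without that replicate the value was -1.08 with an adjusted p of 0.167. HOXD13, a gene of the digits and genital tubercle, had 7.81, 7.94 and 6.22 CPM in the TGFB1 libraries, against 7.77, 7.55 and 8.79 CPM in Vehicle. Its neighbours HOXD12 and HOXD11 were at 0.101 and 0.0138 CPM per kb in Vehicle, against 3.59 for HOXD13. The cluster sum was 22.0, 21.2 and 22.4 CPM with TGFB1, against 22.5, 22.8 and 24.7 CPM in Vehicle, each TGFB1 library being below each Vehicle library, though by little between the nearest pair.

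The 10 HOX genes that were not tested because of low counts were HOXA4, HOXA7, HOXA9, HOXB1, HOXC5, HOXD1, HOXD3, HOXD4, HOXD11 and HOXD12. HOXA9, a gene of blood progenitors and leukaemia, had 7, 5 and 1 counts in the TGFB1 libraries, against 8, 3 and 12 in Vehicle. HOXB1 had 0 counts in all 3 TGFB1 libraries, which allows levels of up to 0.0922, 0.0860 and 0.0924 CPM, against 0, 0 and 6 counts in Vehicle. HOXA7 had 1, 0 and 0 counts with TGFB1, against 4, 2 and 0 in Vehicle. The other 7 had 0 to 17 counts in the TGFB1 libraries and 0 to 9 in Vehicle, and none of the 10 separated the groups. Of the exon bases, 19.5% of HOXD4, 25.9% of HOXD3, 37.5% of HOXA7, 40.1% of HOXC5 and 41.9% of HOXD1 are free of every other annotated gene. For HOXA4 this share is 52.7%. Reads on shared bases may have gone uncounted, so low values of these genes are uncertain. HOXB1 and HOXD12 share no exon base with another gene, HOXA9 keeps 73.0% and HOXD11 78.6%.

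How small a change could be seen differed with the level. The intervals, like the p-values, rest on the spread between these libraries, which may be technical. For 15 of the 28 uncalled HOX genes, all of them at or above 1 CPM, the 95% interval excluded a 1.5-fold change in either direction; among them were HOXA10, HOXB2, HOXB3, HOXB4, HOXB7, HOXB9, HOXB13, HOXC9, HOXC10, HOXC11, HOXC13, HOXD8, HOXD9 and HOXD13. Of the other 13, the interval reached a 1.5-fold rise but no such fall for HOXA6, HOXC4 and HOXC8. It reached a 1.5-fold fall but no such rise for 7, HOXA3, HOXA13, HOXB6, HOXB8, HOXC6, HOXC12 and HOXD10. For 3 genes, HOXA2, HOXA11 and HOXB5, it reached both. No HOX gene other than HOXA5 passed in any of the 14 alternatives.

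None of the listed noncoding genes of the clusters passed the test. All 18 listed long noncoding RNAs matched a row, 13 were tested, and 0 rose or fell (0 with edgeR, DESeq2 and limma-voom, 0 at an unadjusted p under 0.05 with edgeR, and 0 with groups that did not overlap). Over all tested genes these shares were 3.31% called, 12.3% unadjusted and 16.4% without overlap, so few or none would be called among 13 at the background share. HOXB-AS1 averaged 1.77 ± 0.335 CPM in TGFB1 and 1.74 ± 0.509 CPM in Vehicle (SD, n = 3 each). HOXA-AS2 averaged 1.90 ± 0.446 CPM in TGFB1 and 1.55 ± 0.291 CPM in Vehicle (SD, n = 3 each). HOXB-AS3 had the lowest log2 fold change, -0.84 ± 0.42 (SE, adjusted p = 0.428). Counting without strand would not separate these antisense genes from their partners, so their values are uncertain. Of 6 microRNA genes 4 matched, with 0 to 4 counts per library, which for hairpins in such libraries says nothing of the mature microRNA. HOX coding genes held 92.7% to 94.5% of the counts over the HOXA span, 93.7% to 96.6% over HOXB, 92.5% to 95.3% over HOXC and 87.0% to 91.1% over HOXD.

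Partners and regulators of HOX genes were read from lists in the same fit. Of 9 tested TALE cofactors 0 rose and 1 fell: MEIS1, whose protein binds DNA with HOX and PBX proteins. Over all tested genes 2.43% rose and 0.887% fell. MEIS1 had 6.58, 6.68 and 6.41 CPM in the TGFB1 libraries, against 11.9, 9.40 and 10.1 CPM in Vehicle. All TGFB1 libraries lay below all Vehicle libraries, and the log2 difference was -0.68 ± 0.13 (SE), with an adjusted p of 0.00123. The 3 most abundant cofactors, MEIS2, PBX3 and PBX2, had log2 fold changes of -0.09, 0.19 and -0.06 and did not pass. The median of the 9 was -0.08, against -0.01 for all genes.

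Retinoic acid is the vitamin A derivative that switches on HOX genes in the embryo. Of 12 tested genes of its pathway 4 rose and 0 fell, where 2.43% of all tested genes rose and 0.887% fell. The list was chosen with earlier results of these data known. Its share is therefore a description and not a test of the pathway. RARA, a retinoic acid receptor, had 14.9, 12.6 and 13.2 CPM in the TGFB1 libraries, against 5.10, 7.06 and 8.90 CPM in Vehicle; its log2 fold change was 0.93 ± 0.14 with an adjusted p of 3.54e-05. CYP26B1, which breaks retinoic acid down, had 2.92, 2.21 and 2.40 CPM in the TGFB1 libraries, against 0.890, 0.940 and 0.902 CPM in Vehicle; its log2 fold change was 1.45 ± 0.29 with an adjusted p of 0.00131. For both genes the groups did not overlap. DHRS3, a retinaldehyde reductase, averaged 106 ± 1.36 CPM in TGFB1 and 80.1 ± 3.397 CPM in Vehicle (SD, n = 3 each), and STRA6, a retinol transporter, 17.3 ± 0.824 CPM in TGFB1 and 11.8 ± 2.26 CPM in Vehicle (SD, n = 3 each). STRA6 did not pass once Vehicle replicate 2 was omitted (adjusted p = 0.0612). Log2 fold changes were 0.40 ± 0.05 for DHRS3 (adjusted p = 3.11e-06) and 0.56 ± 0.12 for STRA6 (adjusted p = 0.0025). ALDH1A3, which makes retinoic acid, was the most abundant member. It had 670.1 ± 11.7 CPM in TGFB1 and 677 ± 27.3 CPM in Vehicle (SD, n = 3 each) and did not pass (adjusted p = 0.917), nor did RDH10, at 25.4 ± 0.347 CPM in TGFB1 and 28.2 ± 2.02 CPM in Vehicle (SD, n = 3 each). The median log2 fold change of the 12 was 0.17, against -0.01 for all genes.

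**Figure D4:**
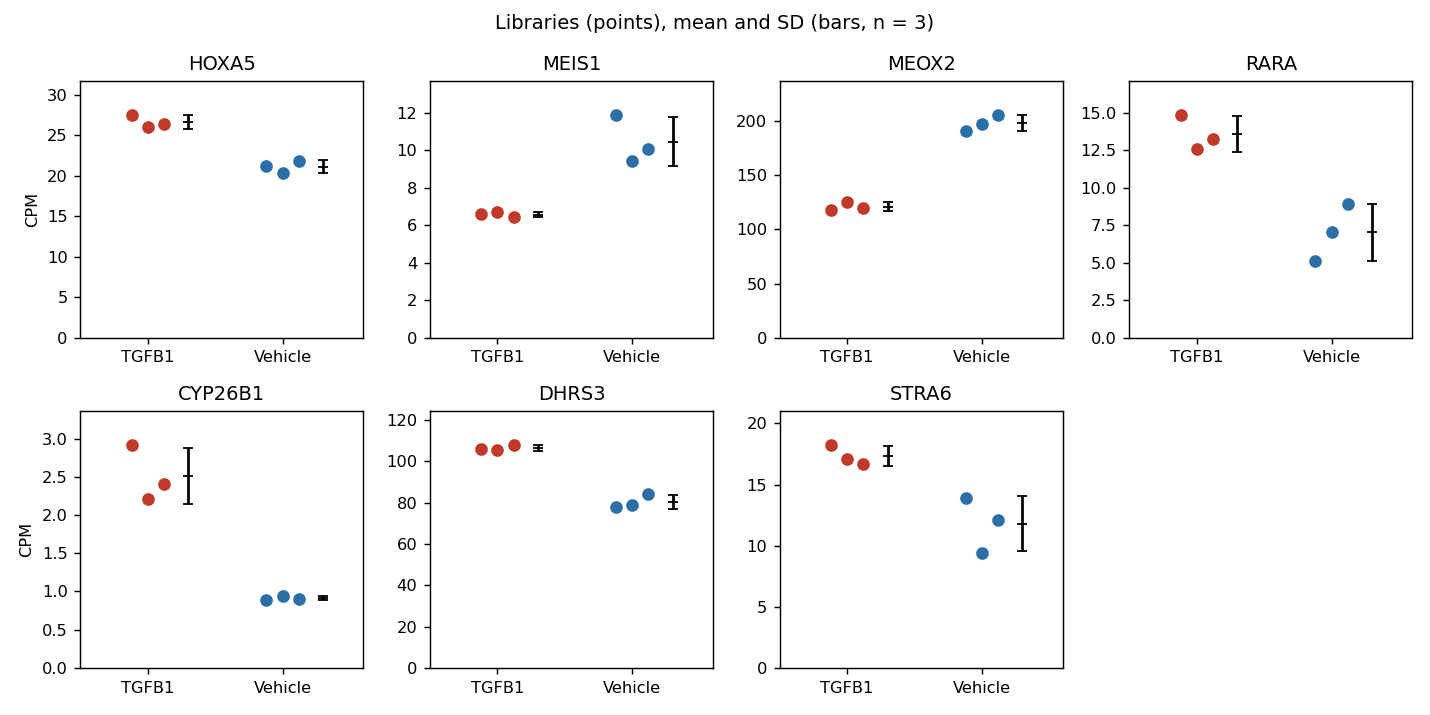
CPM in each library (TGFB1 on the left in red, Vehicle on the right in blue) with mean and SD, for HOXA5 and the 6 genes of the cofactor, homeobox and retinoic acid lists that passed the test. HOXA5, RARA, CYP26B1, DHRS3 and STRA6 are higher and MEIS1 and MEOX2 lower in all 3 TGFB1 libraries.

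Of 26 tested Polycomb genes 1, not reported here, rose and 0 fell, where 2.43% of all tested genes rose and 0.887% fell. The most abundant, RBBP7, PHC2 and RBBP4, had log2 fold changes of 0.02, 0.15 and 0.03 and did not pass. The median of the 26 was 0.01, against -0.01 for all genes. Of 14 tested Trithorax and demethylase genes 0 rose or fell (0 with edgeR, DESeq2 and limma-voom; 2 at an unadjusted p under 0.05 with edgeR; 3.31% and 12.3% of all tested genes met these thresholds in edgeR), and PSIP1, KMT2C and WDR5, the most abundant, had log2 fold changes of -0.03, -0.05 and 0.00. Of 13 homeobox genes related to HOX, 3 were tested. MEOX2, a homeobox gene of somites and vessels, fell: it had 118, 126 and 119 CPM in the TGFB1 libraries, against 191, 197 and 206 CPM in Vehicle; its log2 fold change was -0.72 ± 0.05 with an adjusted p of 1.96e-12. MNX1 and GBX2, the other two, had log2 fold changes of 0.21 and 0.03 and did not pass, and 5 genes of that list were at 0 counts in all libraries.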

How the data were processed

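The data are read counts per gene for 6 libraries, 3 with TGFB1 and 3 Vehicle, grouped by sample title. Whole-number counts per Ensembl gene were deposited; per the submitters' processing notes, the authors used cutadapt, TopHat2 2.1 and HTSeq with the GRCh38 build. The sources used here do not name the annotation release, the counting mode or the strand setting. The molecule label says polyA RNA, while the extraction text describes ribosomal RNA depletion. Symbols were matched by gene ID, and coordinates and exon lengths come from GENCODE 29 (GRCh38), possibly another release than the authors'.

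Genes were kept with filterByExpr (minimum count 10, minimum total 15) and scaled by TMM, and tested with edgeR 4.0.16 in R 4.3.3 (quasi-likelihood F-test, robust, group as sole term), adjusted over 16690 genes. SE is the absolute log2 fold change over the square root of F. CPM uses library totals. Alternatives used DESeq2 1.42.0, limma 3.58.1 (voom), other scalings, filters, a replicate block and each library left out. The fit was tested on simulated data. The members and lists were chosen with earlier results of these data known. Some genes the rule would name are not reported here, though they stay in the fits and counts. The rule for values names all HOX genes, with all libraries for those at or above 1 CPM in Vehicle or with the 6 smallest p, and of each other list the called members and the 3 most abundant. Same-numbered libraries did not deviate together (correlations -0.03, 0.04 and 0.01), so no pairing was used.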

Additional observations from a re-analysis of the deposited data

How the results depend on the processing

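Over the 14 alternatives to the gene test, 395 of 399 values of the 29 tested HOX genes stayed on their side of the threshold, and the 4 that did not were HOXA5 with 1 library left out. HOXB5, given no adjusted p by DESeq2, was counted there as not passing. The count of called HOX genes was 1 with every other scaling, filter and tool, and 0 to 1 with 1 library left out. Over all genes, leaving out a library gave 365 calls (without TGFB1 replicate 1) to 923 (without Vehicle replicate 3), against 553 with all 6; the cause was not tested. With the replicate block the counts were 1 HOX gene and 601 genes in all, so this block changed no HOX call. HOX genes at or above a threshold in Vehicle numbered 25 at 1 CPM, 28 at 0.5 CPM, 21 at 2 CPM and 26 at 1 TPM-like unit (length-corrected levels scaled to a fixed sum). The 10 untested genes had few counts, and 13 tested genes had intervals that reached a 1.5-fold change; the parts of depth, spread between libraries and shared exon bases in this were not tested.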
